A study of Mus musculus with 10 samples.

Results

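The 6 genes described here, Sparcl1, Apoe, Ndrg2, Sox9, Vim and Fabp7, are genes of astrocytes and their precursors that the cells secrete, use in signalling or use to build themselves. They were read from every spot of a 2-colour mouse array whose descriptive name or old alias was that of 1 of them. This gave 15 spots of the 22818 that were not controls, and 6 genes under 7 of the 14754 distinct names that were neither controls nor unnamed expressed sequence tags. The genes were picked for reading with earlier results of these data known, so their differences between the pools are descriptions and carry no test.

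The arrays compared the paraventricular nucleus (PVN), a hypothalamic nucleus that controls stress hormone release, of separated mice with that of non-separated mice. The separated mice were kept from their mothers for 24 h, the non-separated mice were not, and litters were allotted to either condition at random. RNA from tissue punches of 6 animals per group was amplified and joined into 1 pool per group. Both pools were put together on each of 10 arrays. On 5 of them the separated pool carried the dye Cy5, and on the other 5 it carried Cy3. A single comparison of pools was thus measured 10 times, and the spread between animals was not measured. Strain, age, sex and litter are not given in the sources used here. The pool in each dye was taken from the dye labels; if the array titles named the pool in Cy5 instead, every direction below would reverse. Each dye orientation was scanned on a day of its own, so scan day and dye orientation cannot be told apart, and each value is the average of the 2 orientation means.

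Astrocytes supply neurons with lipids and metabolites and clear transmitter, and they shape synapses through proteins that they secrete. Sparcl1, also called hevin, is a secreted matrix protein that promotes synapse formation. Apoe is the main lipid carrier that astrocytes release. Ndrg2 is a cytoplasmic protein of the N-myc downstream regulated family and a marker of mature astrocytes. Sox9 is a transcription factor that directs cells to the astrocyte fate. Vim, an intermediate filament protein, and Fabp7, the brain fatty acid binding protein, are abundant in radial glia and in tanycytes, the elongated glia that line the third ventricle next to the hypothalamus.

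The spots of these genes did not share 1 direction. Ndrg2 and Sparcl1 were lower in the separated pool on all 10 arrays, at 2 spots and 1 spot. Fabp7 was slightly higher on all 10 arrays at 1 of its 2 spots. The brightest spots of Apoe and Sox9 changed sign with the dye orientation, and Vim was clearly above 0 in 1 orientation only.

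The regions before the start are shown for Ndrg2, Vim and Fabp7, the 3 of the 6 genes matched at their outermost start in the RefSeq table used. They place the gene with the lowest ratio beside the genes of radial glia. Each line gives the 250 bases before the gene's outermost start, 5′ to 3′ on the gene's own strand, in build GRCm38.p6. Ndrg2 is from chr14:51914005-51914254 on the minus strand, Vim from chr2:13574061-13574310 on the plus strand and Fabp7 from chr10:57784673-57784922 on the plus strand. Capitals mark 3 short motifs that were searched on both strands and do not overlap here: the box where transcription complexes assemble, spelled TATAAA, the promoter box that nuclear factor Y binds, spelled CCAAT, and the core that SOX factors such as Sox9 bind, spelled ACAAT.
Ndrg2: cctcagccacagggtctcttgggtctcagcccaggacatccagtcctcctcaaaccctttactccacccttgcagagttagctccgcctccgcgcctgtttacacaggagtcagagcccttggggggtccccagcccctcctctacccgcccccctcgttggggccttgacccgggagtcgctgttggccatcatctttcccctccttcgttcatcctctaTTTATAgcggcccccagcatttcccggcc
Vim: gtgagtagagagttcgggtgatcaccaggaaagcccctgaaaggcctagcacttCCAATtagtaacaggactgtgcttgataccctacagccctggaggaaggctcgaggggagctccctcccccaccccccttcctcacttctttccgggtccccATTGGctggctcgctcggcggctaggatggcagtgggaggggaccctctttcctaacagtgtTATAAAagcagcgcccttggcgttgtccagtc
Fabp7: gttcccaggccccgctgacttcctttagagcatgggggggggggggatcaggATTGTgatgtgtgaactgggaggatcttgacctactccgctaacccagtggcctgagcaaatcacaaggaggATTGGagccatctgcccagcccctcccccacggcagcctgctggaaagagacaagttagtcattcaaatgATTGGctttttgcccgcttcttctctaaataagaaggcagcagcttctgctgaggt
The assembly box stood 1 time each in the Ndrg2 and the Vim region, with its first base 29 and 32 bases before the start, and 12.4% of 32817 such regions of mouse genes held it. In Vim it read TATAAA on the gene's own strand, while in Ndrg2 it was on the other strand and read TTTATA. The nuclear factor Y box stood 2 times in the Vim and 2 times in the Fabp7 region, against 33.8% of all regions with at least 1. The SOX core stood 1 time, in the Fabp7 region, and 27.7% of all regions held it. These matches describe letters only.

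Of the 15 spots, 9 were above empty spots, meaning that either dye exceeded the 95th percentile of the array's empty spots on at least 8 of 10 arrays. Each of the 6 genes had at least 1 such spot, and spots of a gene are numbered here from the brightest. With the 99th percentile instead, 0 of the 15 spots passed, and 88 of all spots. Over the whole array 2552 spots passed the same limit. The median raw intensity of an array lay between 286 and 529 for Cy5 and between 436 and 1011 for Cy3. The defining astrocyte genes Gfap (filament protein, 2 spots) and Aqp4 (water channel, 1 spot) were not above empty spots, while Slc1a3, Aldoc and Gja1 were. Of 7 matched marker genes of PVN neurons 1, Scg2, was above empty spots, and Avp, Oxt, Crh and Trh were not.

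No spot of the 6 genes met the call, which asks for a 1.5-fold difference or more and for 1 sign on all arrays. Over all spots, 0.18% were called lower and 0.0745% higher, and of those above empty spots 0.47% and 0.157%. Without the size limit, 3 of the 15 spots were lower on every array, against 0.92% of all spots and 4.27% of spots above empty spots. The Fabp7 spot was the 1 that was higher on every array, against 0.403% of all spots and 1.53% of those above empty spots. Since the genes were picked on this comparison, nothing is read from these shares.

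**Figure D1:**
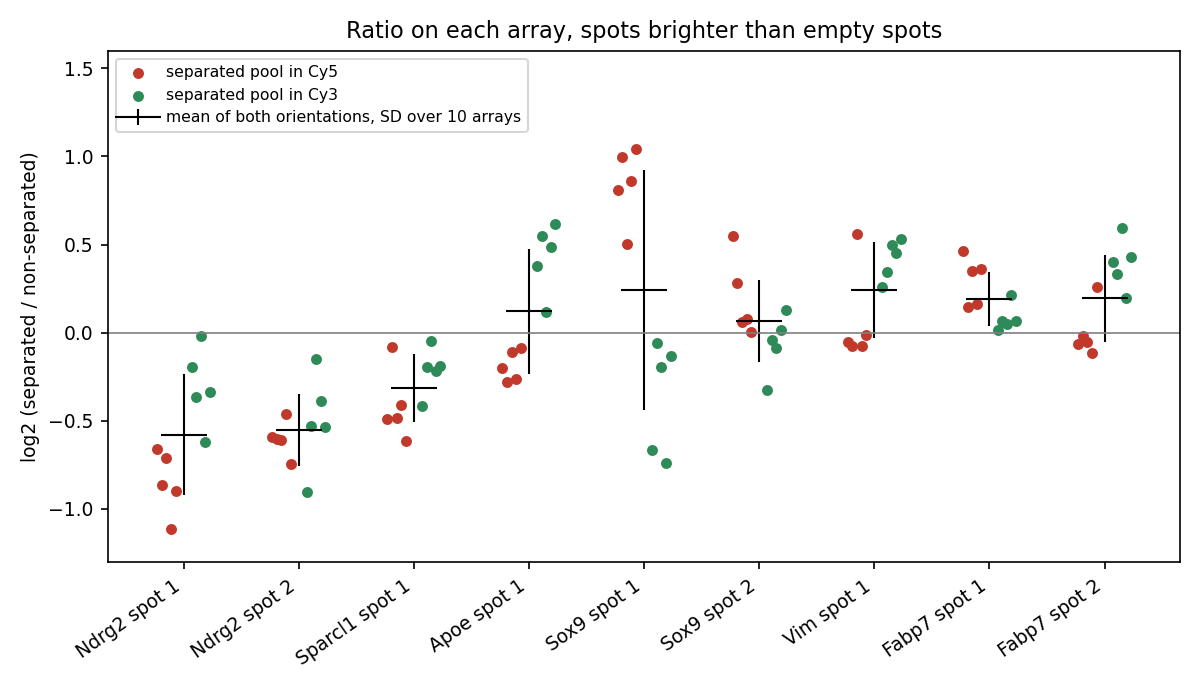
Log2 ratio of separated over non-separated (vertical axis) on each of the 10 arrays for the 9 spots above empty spots, red for the separated pool in Cy5 and green for it in Cy3; the black bar is the mean of both orientation means with the SD over 10 arrays. Both Ndrg2 spots and Sparcl1 spot 1 lie below 0 on every array and Fabp7 spot 1 above 0, while the colours of Apoe spot 1 and Sox9 spot 1 lie on opposite sides of 0.

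Among the secreted proteins, Sparcl1 was lower. At Sparcl1 spot 1 the log2 ratios were -0.49, -0.08, -0.48, -0.41 and -0.61 with the separated pool in Cy5. They were -0.42, -0.19, -0.05, -0.22 and -0.19 with it in Cy3. All 10 were below 0, and the orientations overlapped, with the array nearest 0 in each of them at -0.08 and -0.05. The mean was -0.31 ± 0.19 (SD, n = 10 arrays), a fold of 1.24. Normalised intensity ran from 637 over a median of 3529 to 6771 in the separated pool, against 740, 3940 and 9489 in the non-separated pool. The pools overlapped across arrays because the arrays differ in brightness, and the difference is seen within each array. In these bulk pools, fewer cells of a type and less RNA per cell cannot be told apart. Sparcl1 spot 2 was not above empty spots on any array, and its ratio averaged -0.25 ± 0.38, below 0 on 9 of 10 arrays.

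Apoe had no stable direction. At Apoe spot 1 the log2 ratios were -0.20, -0.28, -0.11, -0.26 and -0.09 with the separated pool in Cy5. With it in Cy3 they were 0.38, 0.55, 0.12, 0.49 and 0.62. The orientations did not overlap and lay on opposite sides of 0, and their means, -0.19 ± 0.09 and 0.43 ± 0.20 (SD, n = 5 arrays each), averaged 0.12 ± 0.36 over the 10 arrays. The dye term is the shift of Cy5 against Cy3 that is independent of the pools, and scan day cannot be told apart from it. At this spot the term was -0.31 on the log2 scale, with an adjusted p of 0.052 in limma over all 22818 spots. Over 4 alternatives the adjusted p in limma ran from 0.0088 with median centring, over 0.028 with print-tip loess and 0.051 with no background correction, to 0.14 with the replicate block. Apoe spot 2 was not above empty spots on any array, and its ratio averaged 0.34 ± 0.30, above 0 on 8 of 10. Its intensity, with medians of 549 in the separated pool and 375 in the non-separated pool, was too low to read a fold from.

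Ndrg2 had the lowest ratios of the 6 genes. At Ndrg2 spot 1 they were -0.66, -0.87, -0.71, -1.11 and -0.90 with the separated pool in Cy5. With it in Cy3 they were -0.19, -0.36, -0.02, -0.62 and -0.34. All 10 were below 0, but every array of the first orientation was lower than every array of the second. The orientation means were -0.85 ± 0.18 and -0.31 ± 0.22 (SD, n = 5 arrays each), and the overall mean was -0.58 ± 0.34 (SD, n = 10 arrays), a fold of 1.49 that lay just under the 1.5-fold limit. With no background correction the mean was -0.59, which met it. Normalised intensity ran from 1237 over a median of 5026 to 7488 in the separated pool, against 1904, 5939 and 12270 in the non-separated pool. On every array the separated pool was the dimmer one. Of the spots above empty spots, 0.588% had a lower mean than this one.

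Ndrg2 spot 2, in another block of the array, gave nearly the same mean with a smaller gap between the orientations. Its log2 ratios were -0.59, -0.60, -0.61, -0.46 and -0.75 with the separated pool in Cy5. They were -0.90, -0.53, -0.15, -0.39 and -0.54 with it in Cy3. All 10 were below 0 and the orientations overlapped. The orientation means were -0.60 ± 0.10 and -0.50 ± 0.27 (SD, n = 5 arrays each), and the overall mean was -0.55 ± 0.20 (SD, n = 10 arrays), a fold of 1.47. The dye term was -0.05 at spot 2, with an adjusted p of 0.80 in limma, and -0.27 at spot 1, with an adjusted p of 0.10 in limma. Ndrg2 spot 3 was not above empty spots on any array, and its ratio averaged -0.35 ± 0.71, with 8 of 10 arrays below 0. The files do not say which stretch of the transcript each spot holds, and whether spots of a gene share a clone was not tested.

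**Figure D2:**
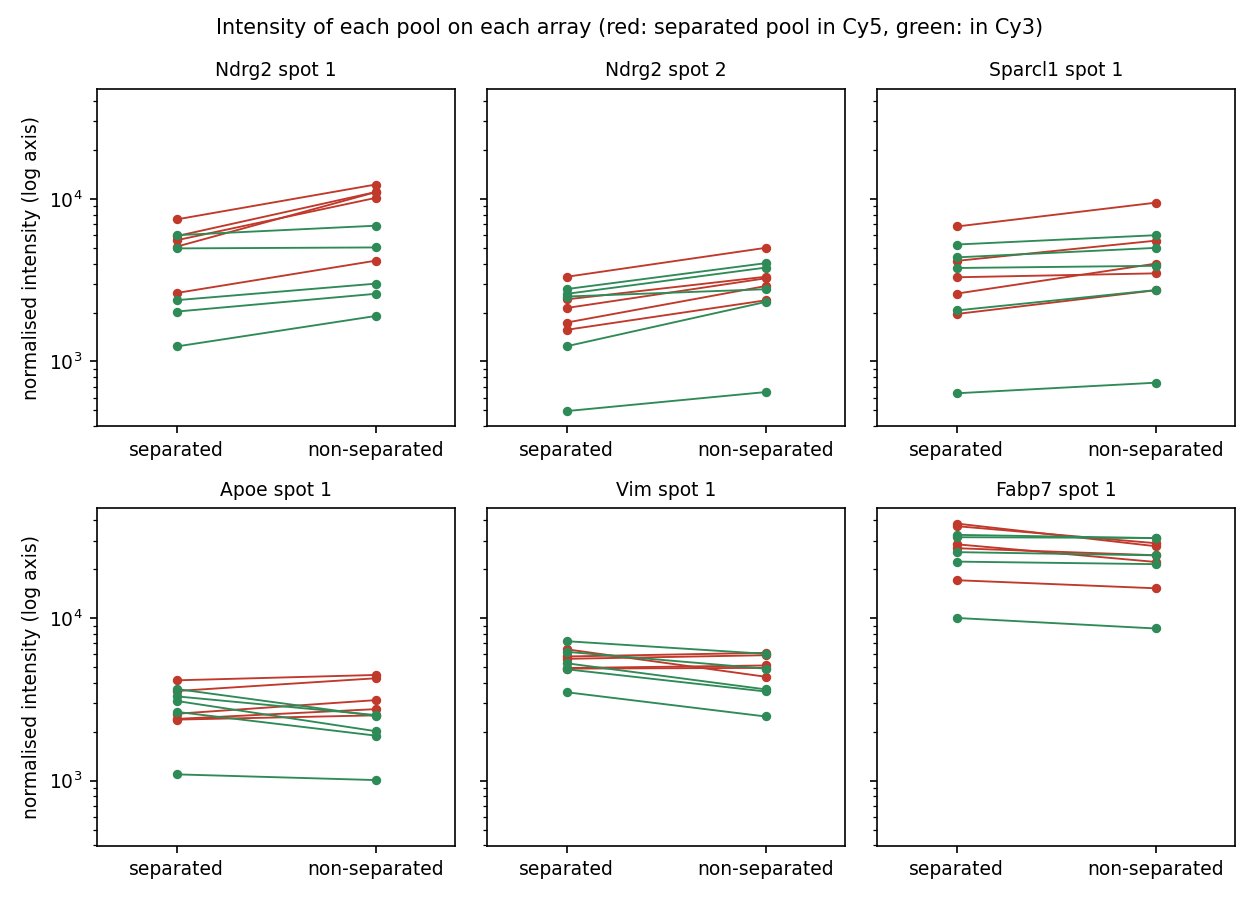
Normalised intensity (vertical log axis) of the separated pool (left) and the non-separated pool (right) for 6 of the spots, 1 line per array, red where the separated pool was in Cy5 and green where it was in Cy3. Every line climbs to the right for both Ndrg2 spots and Sparcl1 spot 1 and descends for Fabp7 spot 1, and for Apoe spot 1 the red lines climb and the green lines descend.

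Sox9 showed the largest gap between the dye orientations. At Sox9 spot 1 the log2 ratios were 0.81, 1.00, 0.50, 0.86 and 1.04 with the separated pool in Cy5. With it in Cy3 they were -0.67, -0.06, -0.20, -0.74 and -0.13. The orientations lay on opposite sides of 0, with means of 0.84 ± 0.21 and -0.36 ± 0.32 (SD, n = 5 arrays each), and averaged 0.24 ± 0.68 over the 10 arrays. The dye term was 0.60 ± 0.10 (SE), with an adjusted p of 0.009 in limma, so this was the 1 spot of the 15 past 0.05. With the replicate block it did not pass, at an adjusted p of 0.075 in limma. In the fit without that block 5.49% of all spots and 23.1% of spots above empty spots were past 0.05. Opposite signs of the orientations on every array, as at this spot and Apoe spot 1, were found at 3.35% of all spots and 16.3% of those above empty spots.

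The second spot of Sox9 lay close to 0. Sox9 spot 2 had ratios of 0.55, 0.28, 0.06, 0.08 and 0.00 with the separated pool in Cy5. With it in Cy3 they were -0.33, -0.04, -0.09, 0.01 and 0.13. The orientations overlapped, and the mean was 0.07 ± 0.23 (SD, n = 10 arrays), smaller than the spread of the arrays. Sox9 spot 3 was above the empty-spot level on 2 of 10 arrays, with a mean of -0.04 ± 0.33. Sox9 spot 4, which the file names SOX9 in capitals, was above it on none, and its mean of -0.21 had an SD of 1.10. The 4 spots thus gave no direction for Sox9.

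**Figure D3:**
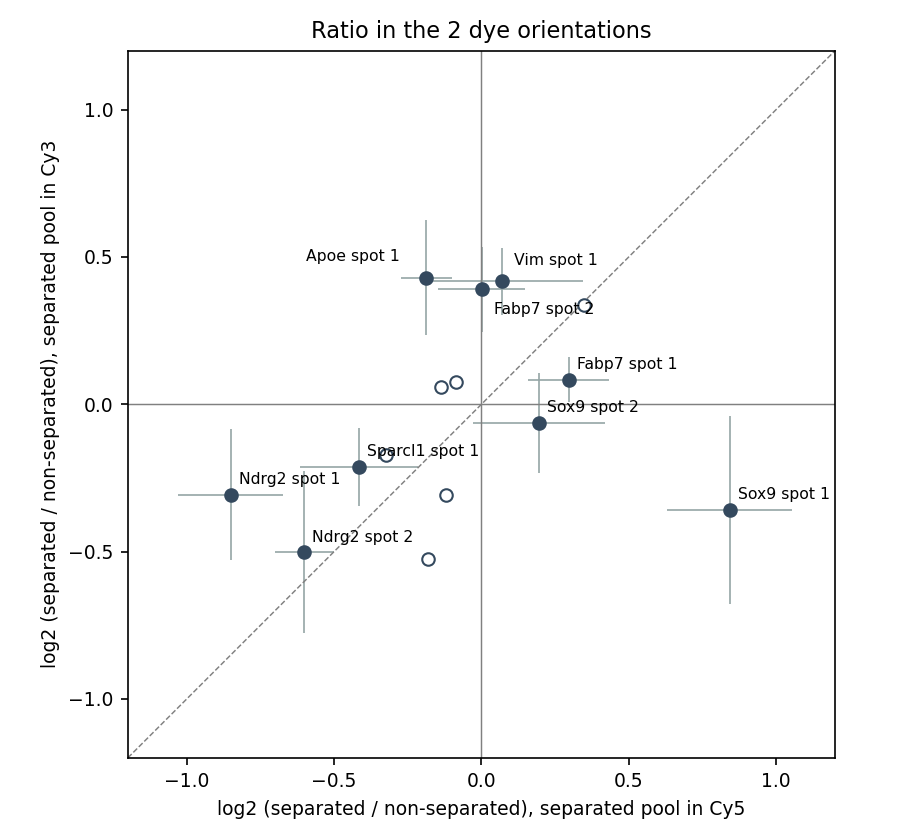
Mean log2 ratio of separated over non-separated with the separated pool in Cy5 (horizontal axis) against that with it in Cy3 (vertical axis), filled for the 9 spots above empty spots, with the SD over 5 arrays as bars, and open for the other 6; the dashed line marks equal means. Ndrg2 and Sparcl1 sit at the lower left, Fabp7 spot 1 at the upper right of 0, and Apoe spot 1 and Sox9 spot 1 at the upper left and the lower right.

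Of the genes of radial glia and tanycytes, Vim was near 0 in 1 orientation and above 0 in the other. At Vim spot 1 the log2 ratios were -0.05, -0.07, 0.56, -0.07 and -0.01 with the separated pool in Cy5. With it in Cy3 they were 0.26, 0.34, 0.49, 0.45 and 0.53. Replicate 3 of the first orientation, at 0.56, lay apart from its other 4 arrays, all of which were slightly below 0, and overlapped with the second orientation. The orientation means were 0.07 ± 0.28 and 0.42 ± 0.11 (SD, n = 5 arrays each), and the overall mean was 0.24 ± 0.27, within the spread of the arrays. Without that replicate the overall mean was 0.18. Vim spot 2 was not above empty spots on any array and averaged -0.01 ± 0.95.

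Fabp7 was above empty spots on all 10 arrays at both of its spots, and its mean ratios were small and positive. At Fabp7 spot 1 the log2 ratios were 0.46, 0.14, 0.35, 0.16 and 0.36 with the separated pool in Cy5. With it in Cy3 they were 0.02, 0.07, 0.05, 0.22 and 0.07. All 10 were above 0, and 4 of the 5 arrays of the second orientation lay below 0.10. The mean was 0.19 ± 0.15 (SD, n = 10 arrays), a fold of 1.14, and 79.5% of spots above empty spots had a lower mean. Normalised intensity ran from 10036 over a median of 27740 to 38235 in the separated pool, against 8646, 24397 and 31196 in the non-separated pool. The same sign on every array was lost with median centring in place of loess, where the mean was 0.12, and in the authors' deposited log2 ratios, where it was 0.21.

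Fabp7 spot 2 was split by orientation. Its ratios were -0.07, -0.02, -0.05, -0.11 and 0.26 with the separated pool in Cy5. They were 0.40, 0.33, 0.59, 0.20 and 0.43 with it in Cy3. In the first orientation 4 of 5 arrays were below 0, and in the second all 5 were above it. The orientation means were 0.00 ± 0.15 and 0.39 ± 0.15 (SD, n = 5 arrays each), and the overall mean was 0.20 ± 0.25. The 2 spots of Fabp7 therefore had nearly equal means, 0.19 and 0.20, reached through opposite orientations.

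Comparing the 6 genes, the orientation means shared a sign at Ndrg2 spots 1 and 2, Sparcl1 spot 1, Vim spot 1 and both Fabp7 spots. At Vim spot 1 and Fabp7 spot 2 that rests on 1 array, since the other 4 with the separated pool in Cy5 were below 0. They differed in sign at Apoe spot 1 and at Sox9 spots 1 and 2. Over the 9 spots above empty spots the SD over arrays ran from 0.15 for Fabp7 spot 1 to 0.68 for Sox9 spot 1, against a median of 0.32 over all spots above empty spots. Over the 6 spots that were not above empty spots it ran from 0.30 to 1.10, against a median of 0.54 over the other spots that were not controls. Leaving out each array in turn moved the mean of Ndrg2 spot 1 between -0.61 and -0.54, of Ndrg2 spot 2 between -0.60 and -0.50 and of Sparcl1 spot 1 between -0.36 and -0.29. All 3 kept the same sign on every array under each of 19 other ways of processing or subsets of arrays. For the subsets, the median over arrays and the replicate block this was fixed in advance, since they reuse the same array ratios. Only the changes of background correction and normalisation and the authors' deposited log2 ratios could have ended it. In the authors' ratios the direction was set by turning all columns, so they are no separate evidence of direction.

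**Figure D4:**
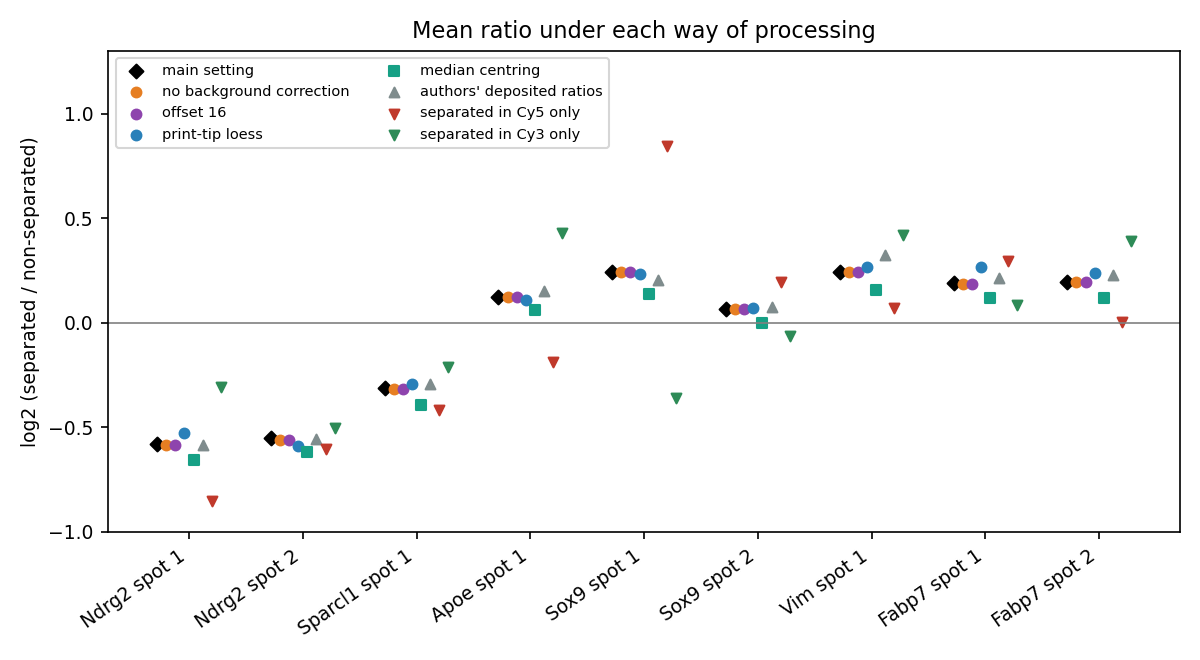
Mean log2 ratio of separated over non-separated (vertical axis) of the 9 spots above empty spots under the main setting (black diamond) and 7 alternatives. The orientations lie furthest apart at Sox9 spot 1, at 0.84 and -0.36, and closest at Ndrg2 spot 2, at -0.60 and -0.50, where the settings for background and normalisation spread from -0.62 to -0.55.

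The same reading was made in related genes, each taken from its brightest spot, with a median of 0.0011 over all spots. Of all spots 0.92% were lower and 0.403% higher on every array, and of those above empty spots 4.27% and 1.53%. The lists were chosen with earlier results of these data known, so nothing is read from their counts beside these shares. Of 20 matched astrocyte genes other than the 6, 4 were lower on every array and 0 higher, with a list median of -0.15, and of -0.02 over the 5 of them above empty spots. The 4 were Gjb6 (a gap junction protein) at -1.22 ± 0.40, Aldoc (aldolase C) at -0.73 ± 0.35, Mt1 (metallothionein 1) at -0.61 ± 0.31 and Gja1 (another gap junction protein) at -0.51 ± 0.22. Of these, Gjb6 and Mt1 were not above empty spots. The glutamate transporter gene Slc1a3 lay at -0.02 ± 0.22, Gfap at -0.20 ± 0.48 and Aqp4 at -0.10 ± 0.60. Of the 5 astrocyte genes above empty spots, Aldoc and Gja1 were lower on every array at their brightest spot, as Ndrg2 and Sparcl1 were. Aldoc spots 2, 3 and 4 lay at -0.19, -0.87 and -0.53, with 8, 10 and 8 of 10 arrays below 0. Gja1 spots 2 and 3 lay at -0.50 and -0.48, with 9 and 8 of 10 below 0. On the other side of 0, Slc1a3 spot 2 lay at 0.10 and Gfap spot 2 at 0.13, with 4 and 5 of 10 below 0. Of these further spots, Aldoc spot 4, Gja1 spot 3 and Gfap spot 2 were not above empty spots. Slc1a3, Glul (glutamine synthetase) and Atp1b2 (a sodium pump subunit) did not have 1 sign on every array. Glul lay at 0.18 ± 0.74, with 5 of 10 arrays above 0, and Atp1b2 at 0.28 ± 0.42, with 6 of 10 above 0. Each had orientation means of opposite sign (separated pool in Cy5, then in Cy3). They were 0.17 and -0.21 for Slc1a3, 0.87 and -0.51 for Glul, and -0.09 and 0.65 for Atp1b2.

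Among 18 matched genes of radial glia and tanycytes other than Vim and Fabp7, 1 was higher and 1 lower on every array, with a list median of -0.01. Ptn, the secreted growth factor pleiotrophin, was the higher one at 0.44 ± 0.21, and Dbi, the acyl-CoA binding protein, was the lower one at -0.31 ± 0.17. The 5 genes of this list above empty spots had a median of 0.20, which is the value of Hes5. Of them, Hes5, Sox2 and Id4 had orientation means of opposite sign, at 0.80 and -0.40, -0.07 and 0.49, and -0.25 and 0.57 (separated pool in Cy5, then in Cy3), as Apoe spot 1 and Sox9 spot 1 had.

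In the families of the 6 genes, few relatives had 1 sign on every array. In the Ndrg family, Ndrg4, a neuronal relative of Ndrg2, lay at -0.30 ± 0.26 with 9 of 10 arrays below 0, while Ndrg1 at 0.13 and Ndrg3 at 0.05 were not above empty spots. Of 7 matched genes of the SPARC family 0 had 1 sign on every array at the brightest spot, and the median was 0.07. Sparc itself, the secreted relative of Sparcl1, had 5 spots with means of -0.01, -0.52, -0.30, -0.66 and -0.51 from the brightest on, and the 2 dimmest were below 0 on every array. For Sparc the choice of the brightest spot therefore gave the value nearest 0.

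Around Apoe, 0 of 21 matched genes of lipoprotein transport had 1 sign on every array, with a median of 0.02. Around Sox9, 0 of 7 matched Sox genes did, with a median of 0.11. Of 13 matched intermediate filament genes 0 did, with a median of -0.07, and the 5 of them above empty spots had a median of 0.16. In the lipid binding group of Fabp7 1 of 12 matched genes did, Dbi, and the median was 0.06.

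**Figure D5:**
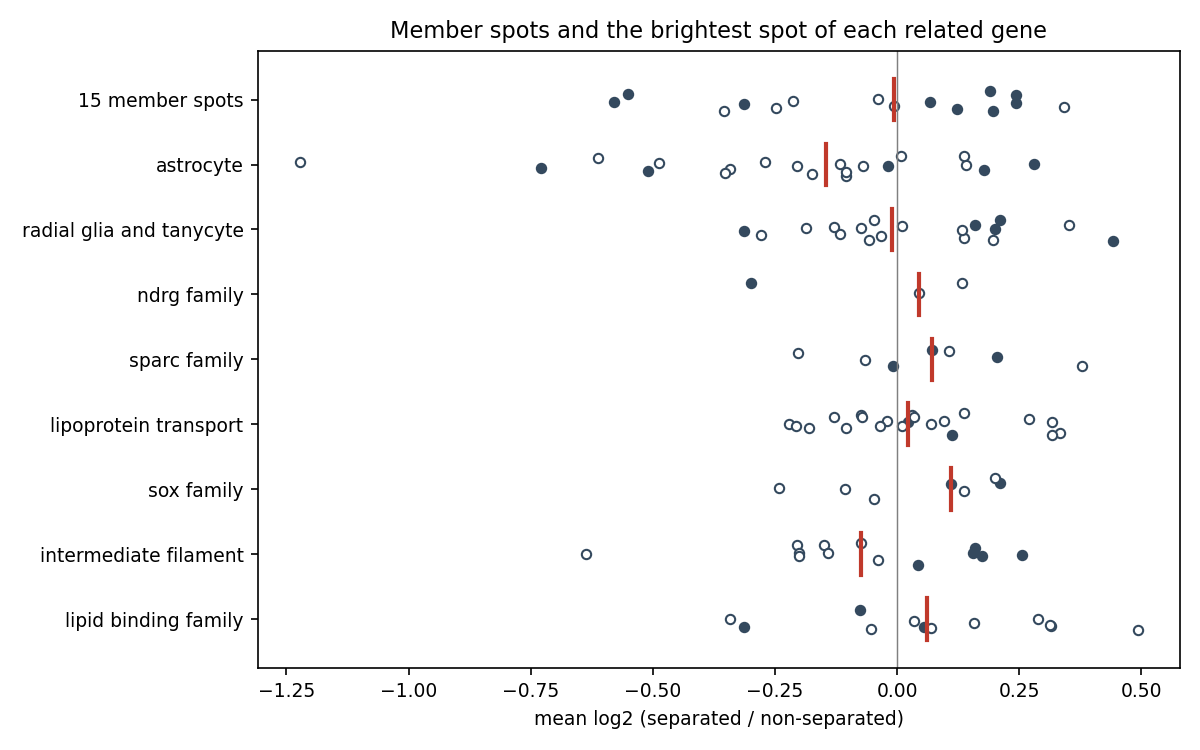
Mean log2 ratio of separated over non-separated (horizontal axis) of the 15 spots of the 6 genes (top row) and of the brightest spot of each matched gene in 8 related lists, filled where above empty spots and open otherwise; the red bar is the median of the row. The astrocyte row reaches furthest to the left, to -1.22 for Gjb6, and the family rows lie around 0.

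Markers of other cell types were read in the same way beside the lower spots of Ndrg2 and Sparcl1. Of 13 oligodendrocyte genes 1 was lower on every array, Mbp (myelin basic protein) at -0.43 ± 0.27, and of 12 neuronal genes 1 was, Eno2 (neuronal enolase) at -0.37 ± 0.20. None of 13 microglial, 16 vascular, 9 meningeal, 5 choroid plexus and ependymal and 7 PVN neuron genes had 1 sign on every array. The list medians lay between -0.02 and 0.02, except for microglia at 0.16. The summed intensity of the 20 astrocyte genes ran from 58833 to 115796 in the separated pool and from 71105 to 118193 in the non-separated pool. That of the 12 neuronal genes ran from 56720 to 114084 in the separated pool and from 53147 to 110560 in the non-separated pool. Within arrays, the log2 ratio of the sums ran from -0.54 to 0.36 for the astrocyte genes, with a mean of -0.10. For the neuronal genes it ran from -0.27 to 0.33, with a mean of 0.06. Single genes weighed heavily in these sums: in the separated pool Glul averaged 46640 and Gad1 46540. The part of these cells in the values of the 6 genes was not tested.

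The spots most like the lowest of the 15 were sought among named spots above empty spots, by the root mean square difference of log2 ratios over the 10 arrays. The same is not given for the highest, Apoe spot 2, which was not above empty spots. For Ndrg2 spot 1 the nearest of 1233 was a spot of Gja1, at a difference of 0.15 and with orientation means of -0.72 and -0.28. It was followed by small nuclear ribonucleoprotein N at 0.19 and by cytochrome c oxidase subunit VIIa polypeptide 2-like at 0.21. Like Ndrg2 spot 1, all 3 were lower in the first orientation than in the second, which follows from picking them by these same ratios.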

How the data were processed

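Spot intensity was deposited by the authors on a linear scale, quantified per the file headers with QuantArray by a fixed circle without background or crosstalk correction. The local background columns, on that same scale, were used too. A table of log2 ratios that the authors deposited covered 19025 spots, with no normalization method stated in these sources. Its columns correlated with the ratios below at -0.96 to -0.92, so under the dye labels they ran the other way and were turned; were the titles to name the Cy5 pool, they would already run as separated over non-separated. Symbols were given by hand to 176 names, not checked against clone sequences.

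In limma 3.58.1 (R 4.3.3), normexp with an offset of 50 removed background, and loess within each array, with 1374 control spots at weight 0, normalised the ratios. Ratios were turned to separated over non-separated. The dye term was fitted to all 22818 spots with Benjamini-Hochberg adjustment. On simulated data for this term, with 22818 spots of which 200 carried a dye term of 1 (log2), it recovered 81.5% of the 200 and made 13 false calls. Means, counts and figures were made in Python 3.11.15.

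The members and the 15 gene lists were chosen with earlier results of these data known. Named genes are all member spots, list genes with 1 sign on every array at their brightest spot (at most 8 a list), the defining astrocyte genes, family members and the nearest spots by likeness. Other list genes are named outside these rules, for their level, their orientation means or their weight in a sum. These are Glul, Atp1b2, Hes5, Id4, Gad1, Ly6a, Ptgds, Scg2, Avp, Oxt, Crh and Trh. Spots of Sparc, Aldoc, Gja1, Slc1a3 and Gfap beyond the brightest were chosen after their values were seen. Precision is limited by the 10 arrays and by the 1 pool per group. The alternatives changed background correction, normalisation, arrays and spots used.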

Additional observations from a re-analysis of the deposited data

Results flagged for a closer look

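Arrays standing apart from the other 4 of their dye orientation were sought in 60 groups of 5 arrays (15 spots and 15 list medians, 2 orientations), of which chance flags about 1 in 20, or 3. There were 5. With the separated pool in Cy5, replicate 3 stood apart at Vim spot 1, at 0.56 where the others lay between -0.07 and -0.01. The same replicate stood apart in the median of the intermediate filament list, at -0.53 where the others lay between 0.19 and 0.34. Replicate 5 of that orientation stood apart at Fabp7 spot 2, at 0.26 where the others lay between -0.11 and -0.02. With the separated pool in Cy3, replicate 4 stood apart at Fabp7 spot 1, at 0.22 where the others lay between 0.02 and 0.07. In that orientation replicate 5 stood apart at the dim Ndrg2 spot 3, at -1.02 where the others lay between -0.47 and -0.36.

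At 2 spots every array of 1 orientation lay on the opposite side of 0 from every array of the other. For Sox9 spot 1 the dye term was 0.60, with an adjusted p of 0.009 in limma, and for Apoe spot 1 it was -0.31, with an adjusted p of 0.052 in limma.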

How the results depend on the processing

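Of 19 alternatives per spot (18 for Apoe spot 2 and Sox9 spot 4, which the authors' table does not list), the mean changed sign in 1 at Apoe spot 1, 1 at Sox9 spot 1, 2 at Sox9 spot 2, 4 at Sox9 spot 3 and 6 at Vim spot 2, and in 0 at the other 10 spots. At spots with 1 sign on every array, subsets of arrays could not change the sign of the mean. The SD over arrays includes the gap between the orientations, so most alternatives could not move a mean by more than 1 SD. The number of spots lower on every array was 3, and 5 within either orientation alone; the number higher was 1, but 0 with median centring and in the authors' values, 3 with separated in Cy5 only and 4 with separated in Cy3 only. No spot was called lower, but 1 was with no background correction, with offset 16, with print-tip loess and with the median over arrays, and 2 with median centring and with separated in Cy5 only. All of these were Ndrg2 spots 1 or 2. Leaving out 1 array gave 0 to 2; it was 1 without separated in Cy5 replicate 1 or 3 or separated in Cy3 replicate 1, and 2 without separated in Cy3 replicate 3. With separated in Cy5 only, 1 spot, Sox9 spot 1, was called higher. With fewer arrays, 1 sign on every array is easier to reach, so counts from subsets are not like for like.

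Over all spots 41 were called lower and 17 higher. These became 690 and 911 with separated in Cy5 only, 332 and 354 with separated in Cy3 only, 12 and 4 among spots above empty spots, and 9 higher with print-tip loess. Leaving out 1 array gave 46 to 57 lower and 17 to 32 higher, the 32 without separated in Cy3 replicate 1. Subsets of arrays ask for 1 sign on fewer arrays, so the call is easier to meet there. A single orientation also does not average out the dye. With the 99th percentile of empty spots, which lay between 20762 and 47531 because some empty spots are bright, 0 of the 15 spots and 88 of all spots were above empty spots, in place of 9 and 2552.

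The dye term passed 0.05 in limma at 1 spot, at 2 with print-tip loess and at 4 with median centring. The added ones were Apoe spot 1 (-0.37 with print-tip loess, -0.48 with median centring), Ndrg2 spot 1 (-0.42) and Vim spot 1 (-0.35), both with median centring. With the replicate block it passed at 0, since Sox9 spot 1 kept its dye term of 0.60 with an adjusted p of 0.075 in limma. Array numbers of the 2 orientations share no more than a number: same-numbered arrays correlated at -0.03 to 0.02 in their deviations, and 1 of 5 matched best with its own number. The replicate block left the means of all spots and the counts by sign and size as they were.

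List medians moved by more than 1 SD of their array medians in these cases. With separated in Cy5 only they were -0.21 for the Ndrg family, -0.022 for microglia, -0.21 for oligodendrocytes, 0.13 for vessels and -0.13 for neurons, and with separated in Cy3 only -0.15 for the Sox family. Among genes above empty spots they were 0.20 for radial glia and tanycytes, -0.30 for the Ndrg family, 0.37 for vessels and -0.88 for meninges. The values for the Ndrg family, vessels and meninges are those of 1 gene each, Ndrg4, Ly6a and Ptgds, and do not describe those lists. In the authors' values the radial glia and tanycyte median was 0.13. Without separated in Cy3 replicate 3 the oligodendrocyte median was 0.11, and leaving out each array in turn gave -0.10 to 0.11. The cause of these changes was not tested.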
